A study of Homo sapiens with 8 samples.

Results

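The genes described here are 10 genes of the hypoxia-inducible factor (HIF) pathway: the factor subunits HIF1A and EPAS1, the prolyl hydroxylases EGLN1 and EGLN3, and the hypoxia-responsive targets VEGFA, ADM, CA9, BNIP3, NDRG1 and KDM3A. They were taken by symbol from the 19479 genes that both deposited expression tables list, and all 10 were found. The data were RNA-seq profiles of AC16, a human line derived by fusion of ventricular heart muscle cells of adults with fibroblasts that had been transformed, in 8 libraries that fall into 4 glucose groups of 2. The title of the series places it in a study of ERK and YAP1/TAZ signalling under high glucose.

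The 25 to 50 mM group (replicates 2 and 3) was kept at 25 mM glucose and then given a further 25 mM D-glucose for 24 h. The 25 mM group (replicates 1 and 3) stayed at 25 mM. The 5 to 50 mM group (replicates 1 and 2) was kept at 5 mM and then given a further 45 mM D-glucose for 24 h, and the 5 mM group (replicates 1 and 3) stayed at 5 mM. All cells had been held at their maintenance glucose for at least 3 passages in DMEM with 10% fetal bovine serum, and total RNA was taken with TRIzol. The labels name no change of oxygen. The design text calls the replicates technical, so the p-values measure the spread between libraries, which may hold no culture-to-culture variation. Maintenance glucose and culture history cannot be told apart, because each maintenance level was 1 culture system.

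HIF factors are dimers of an oxygen-regulated alpha subunit, such as HIF-1alpha (HIF1A) or HIF-2alpha (EPAS1), and a constitutive beta subunit (ARNT). When oxygen is present, prolyl hydroxylases of the EGLN family mark the alpha subunits for VHL-dependent degradation, so the protein level is set largely after transcription and need not follow the mRNA. Stabilised factors bind hypoxia response elements and raise genes for angiogenesis, glycolysis, pH control and mitophagy, and in the heart the pathway is known for its part in the response to ischaemia.

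The core of a hypoxia response element is ACGTG or GCGTG, and the promoters of members that differed between the cultures (EPAS1, KDM3A) and of textbook targets that did not pass the test (CA9, BNIP3) are shown for comparison. Each sequence is 300 bases, from 250 before to 50 after a RefSeq transcript start (GRCh38.p14), printed 5′ to 3′ along the gene. Capitals mark every match to ACGTG or GCGTG on either strand, so a match on the other strand reads CACGT or CACGC.
EPAS1, chr2:46297157-46297456, plus strand: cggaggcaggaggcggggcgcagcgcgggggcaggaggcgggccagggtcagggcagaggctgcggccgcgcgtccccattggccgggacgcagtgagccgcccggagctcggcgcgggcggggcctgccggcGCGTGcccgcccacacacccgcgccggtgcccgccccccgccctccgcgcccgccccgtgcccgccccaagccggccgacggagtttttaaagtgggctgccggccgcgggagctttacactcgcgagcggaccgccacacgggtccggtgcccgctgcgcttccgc
KDM3A, chr2:86441121-86441420, plus strand: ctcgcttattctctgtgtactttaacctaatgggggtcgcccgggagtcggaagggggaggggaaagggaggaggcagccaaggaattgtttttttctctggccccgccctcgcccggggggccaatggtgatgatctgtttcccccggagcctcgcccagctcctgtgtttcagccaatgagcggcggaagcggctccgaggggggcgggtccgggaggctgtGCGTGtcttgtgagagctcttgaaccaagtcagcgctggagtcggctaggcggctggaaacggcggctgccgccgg
CA9, chr9:35673678-35673977, plus strand: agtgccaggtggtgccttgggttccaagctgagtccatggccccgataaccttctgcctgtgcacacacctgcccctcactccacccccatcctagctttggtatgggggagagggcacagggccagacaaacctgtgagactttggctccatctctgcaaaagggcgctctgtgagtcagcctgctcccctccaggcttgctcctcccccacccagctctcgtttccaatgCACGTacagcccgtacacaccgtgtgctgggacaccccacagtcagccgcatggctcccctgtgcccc
BNIP3, chr10:131981874-131982173, minus strand: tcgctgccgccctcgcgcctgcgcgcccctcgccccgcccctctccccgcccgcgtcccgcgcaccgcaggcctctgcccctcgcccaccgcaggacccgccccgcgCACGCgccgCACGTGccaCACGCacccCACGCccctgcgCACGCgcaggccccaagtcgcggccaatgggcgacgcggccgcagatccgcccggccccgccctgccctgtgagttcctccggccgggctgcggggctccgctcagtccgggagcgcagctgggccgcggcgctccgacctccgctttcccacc
BNIP3 held 6 matches, of which 2 are the same CACGTG read on both strands, while EPAS1, KDM3A and CA9 held 1 each. Promoters of 8 of the 10 genes were searched for matches, and those of VEGFA and NDRG1 were not examined here. At least 1 match was held by 48.4% of all 35116 promoters and by 60.9% of the 14431 promoters of genes tested here, so a single match does not set a gene apart. A match is a run of letters and not a measured binding site.

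Depth was read back from the deposited values, which are RPKM (reads scaled to gene length and to the size of the library). Library totals were 21538898 to 27372851 reads, and the upper quartiles of RPKM lay within 1.065 times of each other. The labels call the cells human cardiomyocytes. Summed RPKM over 11 cardiomyocyte markers was 0.668 to 1.08 in 25 to 50 mM, 0.729 to 1.42 in 25 mM, 3.20 to 3.49 in 5 to 50 mM and 1.39 to 1.44 in 5 mM libraries, with MYL2 and NKX2-5 at 0 in all 8 and TNNT2 at or below 0.0945 RPKM. Of 10 fibroblast markers, 10 were at 1 RPKM or above in every group. ACTC1, cardiac alpha-actin, was the most abundant cardiomyocyte marker in the 5 mM culture, at 2.23 and 2.13 RPKM in 5 to 50 mM and 0.983 and 0.644 RPKM in 5 mM libraries. ACTN2 had up to 1.04 RPKM there. ACTC1 was lower in 25 to 50 mM than in 5 to 50 mM libraries (log2 -0.93, limma adjusted p = 0.00155). It did not pass in 25 mM against 5 mM (log2 -0.31, limma adjusted p = 0.1205), and its part in the results below was not tested.

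HIF1A, the alpha subunit found in most cell types, was abundant and nearly level in all 4 groups. Its mean RPKM was above that of 96.4% of the genes detected. It is read from chr14:61695513-61748258 (hg38), where the antisense RNAs HIF1A-AS1, HIF1A-AS2 and HIF1A-AS3 overlap it, and whether counting used strand is not given in the sources used here. HIF1A stood at 248 and 259 RPKM in 25 to 50 mM libraries, against 227 and 235 RPKM in 25 mM libraries. It stood at 262 and 260 RPKM in 5 to 50 mM libraries, against 230 and 221 RPKM in 5 mM libraries. In both pairs the 50 mM libraries were the higher ones and the groups did not overlap. In bulk RNA a change in the make-up of the culture and a change in RNA per cell cannot be told apart, here or below. The log2 difference of HIF1A was 0.21 (SE 0.051) in 5 to 50 mM against 5 mM and 0.13 (SE 0.047) in 25 to 50 mM against 25 mM. Neither passed the test (limma, Benjamini-Hochberg adjusted p = 0.265 and 0.502). Between maintenance cultures the log2 difference of HIF1A was 0.03 in 25 mM against 5 mM (95% interval -0.07 to 0.14; limma adjusted p = 0.580).

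EPAS1, the HIF-2alpha subunit best known from endothelium and from the control of erythropoietin, differed sharply between the maintenance cultures. It maps to chr2:46297407-46386697. EPAS1 had 27.8 and 28.2 RPKM in 25 to 50 mM libraries and 30.4 and 29.6 RPKM in 25 mM libraries. It had 115 and 113 RPKM in 5 to 50 mM libraries and 120 and 125 RPKM in 5 mM libraries. Every library of the 25 mM culture lay far below every library of the 5 mM culture, while 50 mM glucose moved it little in either. EPAS1 was 3.985-fold lower in 25 mM than in 5 mM libraries, a log2 difference of -1.99 (SE 0.048; limma adjusted p = 5.43e-07). The fold was the same in 25 to 50 mM against 5 to 50 mM (log2 -1.99, limma adjusted p = 4.37e-07). Both alpha subunits can be set side by side because RPKM is per length. HIF1A exceeded EPAS1 by 8.94 to 9.19 times in 25 to 50 mM, 7.47 to 7.96 times in 25 mM, 2.27 to 2.29 times in 5 to 50 mM and 1.77 to 1.92 times in 5 mM libraries. The balance of the 2 alpha-subunit mRNAs therefore lay further toward HIF1A in the 25 mM culture.

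**Figure D1:**
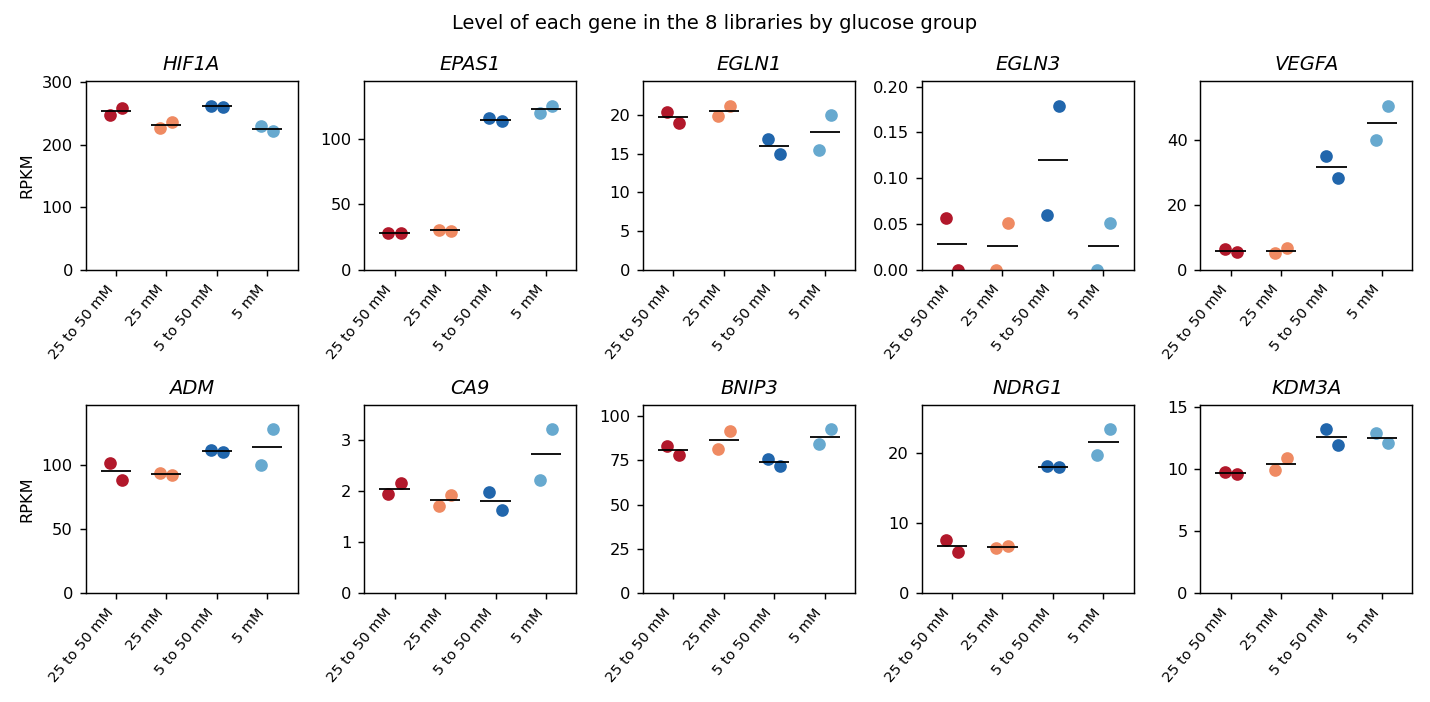
RPKM (vertical axis, starting at 0) of the 10 genes in each library, grouped as 25 to 50 mM, 25 mM, 5 to 50 mM and 5 mM, with points for libraries and bars for group means of 2. EPAS1, VEGFA and NDRG1 separate the 25 mM culture from the 5 mM culture, while HIF1A stays between 221 and 262 RPKM.

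EGLN1, the main oxygen-sensing prolyl hydroxylase and itself a hypoxia target, had 20.4 and 19.0 RPKM in 25 to 50 mM and 19.9 and 21.2 RPKM in 25 mM libraries. It had 16.9 and 14.9 RPKM in 5 to 50 mM and 15.5 and 20.0 RPKM in 5 mM libraries. The 5 mM libraries alone spanned most of that range, so 25 mM and 5 mM overlapped. The log2 difference was 0.21 in 25 mM against 5 mM (limma adjusted p = 0.20) and 0.29 in 25 to 50 mM against 5 to 50 mM (SE 0.119; limma adjusted p = 0.0875). The second passed after median centring (adjusted p = 0.0303), after quantile normalization (0.0279) and when only the 4 compared libraries were fitted (0.0366). EGLN3, a related hydroxylase known to be induced by hypoxia, was close to undetected. It gave 7 reads over all 8 libraries, with 1 and 0 in 25 to 50 mM, 0 and 1 in 25 mM, 1 and 3 in 5 to 50 mM and 0 and 1 in 5 mM libraries. A count of 3 reads corresponds to 0.152 to 0.193 RPKM for this gene, so no difference was detectable at this depth, and EGLN3 was not tested.

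VEGFA, the angiogenic growth factor and a classic HIF target (chr6:43770211-43786487), showed the largest difference between maintenance cultures among the 9 genes tested. VEGFA had 6.30 and 5.37 RPKM in 25 to 50 mM libraries and 4.97 and 6.63 RPKM in 25 mM libraries. It had 35.1 and 28.4 RPKM in 5 to 50 mM libraries and 39.95 and 50.7 RPKM in 5 mM libraries. All 4 libraries of the 25 mM culture lay far below all 4 of the 5 mM culture, and within the 5 mM culture the 50 mM libraries lay below the 5 mM ones with no overlap. VEGFA was 6.82-fold lower in 25 mM than in 5 mM libraries on the log2(RPKM + 1) scale, which understates folds of low genes (log2 -2.77, SE 0.166, limma adjusted p = 1.80e-05). It ranked 33rd from the lowest of 11941 genes tested. The log2 difference was -2.26 in 25 to 50 mM against 5 to 50 mM (limma adjusted p = 4.19e-05).

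NDRG1, a stress-responsive cytoplasmic protein strongly induced by hypoxia in many lines, followed the same order. NDRG1 had 7.55 and 5.81 RPKM in 25 to 50 mM libraries and 6.49 and 6.71 RPKM in 25 mM libraries. It had 18.1 and 17.9 RPKM in 5 to 50 mM libraries and 19.7 and 23.3 RPKM in 5 mM libraries. No library of the 25 mM culture reached the lowest of the 5 mM culture. The log2 difference was -1.56 in 25 mM against 5 mM (SE 0.122, limma adjusted p = 6.35e-05) and -1.32 in 25 to 50 mM against 5 to 50 mM (limma adjusted p = 1.39e-04). EPAS1, VEGFA and NDRG1 passed in both comparisons of the cultures under every alternative run, including each library left out in turn.

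KDM3A, a demethylase of histone H3 lysine residues (chr2:86437044-86492716), differed by much less. KDM3A had 9.82 and 9.59 RPKM in 25 to 50 mM and 9.91 and 10.9 RPKM in 25 mM libraries, against 13.2 and 12 RPKM in 5 to 50 mM and 12.9 and 12.1 RPKM in 5 mM libraries. The 25 mM culture was lower in every library. The log2 difference was -0.25 in 25 mM against 5 mM (SE 0.082, limma adjusted p = 0.0468) and -0.35 in 25 to 50 mM against 5 to 50 mM (limma adjusted p = 0.0119). The first call rested on the setting, since leaving out any 1 of the 4 compared libraries gave adjusted p-values of 0.0532 to 0.226. No filter (0.0661), median centring (0.0647), quantile normalization (0.144), a fit of the 4 libraries (0.116) and a replicate block (0.126) also ended it. The second call was lost under quantile normalization (0.0650), under the block (0.0731) and without 25 to 50 mM replicate 3 (0.0635) or 5 to 50 mM replicate 1 (0.0961).

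ADM, CA9 and BNIP3 did not pass in any comparison, although CA9 did in 25 to 50 mM against 5 to 50 mM after quantile normalization (log2 0.44, limma adjusted p = 0.0280). ADM encodes adrenomedullin, a vasodilator peptide, and was among the more abundant of the set. It had 102 and 88.4 RPKM in 25 to 50 mM, 93.8 and 92.3 RPKM in 25 mM, 112 and 110 RPKM in 5 to 50 mM and 99.7 and 128 RPKM in 5 mM libraries. The 25 mM libraries lay below the 5 mM ones without overlap, by a log2 difference of -0.28 (limma adjusted p = 0.0896), but the 5 mM replicates were themselves far apart. CA9 encodes a membrane carbonic anhydrase widely used as a hypoxia marker, and here it was low. It had 1.95 and 2.15 RPKM in 25 to 50 mM, 1.71 and 1.92 RPKM in 25 mM, 1.99 and 1.62 RPKM in 5 to 50 mM and 2.22 and 3.20 RPKM in 5 mM libraries, from 52 to 121 reads each. The 5 mM libraries were the highest, with a log2 difference of -0.39 in 25 mM against 5 mM (limma adjusted p = 0.0659). Whether ADM, CA9 and EGLN1 passed in that comparison depended on the 5 mM library left out. Without 5 mM replicate 1 the log2 difference was -0.45 for ADM and -0.58 for CA9, and without 5 mM replicate 3 it was 0.38 for EGLN1.

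BNIP3, a receptor for mitophagy, had 83.0 and 78.1 RPKM in 25 to 50 mM and 81.2 and 91.3 RPKM in 25 mM libraries. It had 75.6 and 71.8 RPKM in 5 to 50 mM and 84.0 and 92.4 RPKM in 5 mM libraries. The maintenance cultures overlapped, with a log2 difference of -0.03 in 25 mM against 5 mM (95% interval -0.21 to 0.14; limma adjusted p = 0.762). BNIP3 has many processed pseudogenes and overlaps PPP2R2D, so its reads could have been shared.

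Counted together, 4 of the 9 genes tested were lower in 25 mM than in 5 mM libraries and 0 were higher, where 39.1% of all 11941 genes tested were called and 22.1% were called lower. Of the 4, EPAS1, VEGFA and NDRG1 were called lower by a fold of at least 2, as were 4.77% of all genes. The median log2 difference was -0.28 over the 9 and -0.004 over all genes. In 25 to 50 mM against 5 to 50 mM, 4 of the 9 were again lower, where 41.4% of all genes were called and 23.3% called lower, and the medians were -0.23 and -0.02. Scaling moved the split of calls over all genes: 43.5% of those in 25 mM against 5 mM were higher, and 56.1% after quantile normalization. In 25 to 50 mM against 5 to 50 mM the share was 43.8%, against 54.1% after median centring and 60.1% after quantile normalization. The groups did not overlap for 6 of the 9 in 25 mM against 5 mM and for 8 of the 9 in 25 to 50 mM against 5 to 50 mM, where 67.8% and 74.8% of all genes did not. In the first all 6 were lower, and in the second 6 were lower and 2 higher (BNIP3 and EGLN1).

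**Figure D2:**
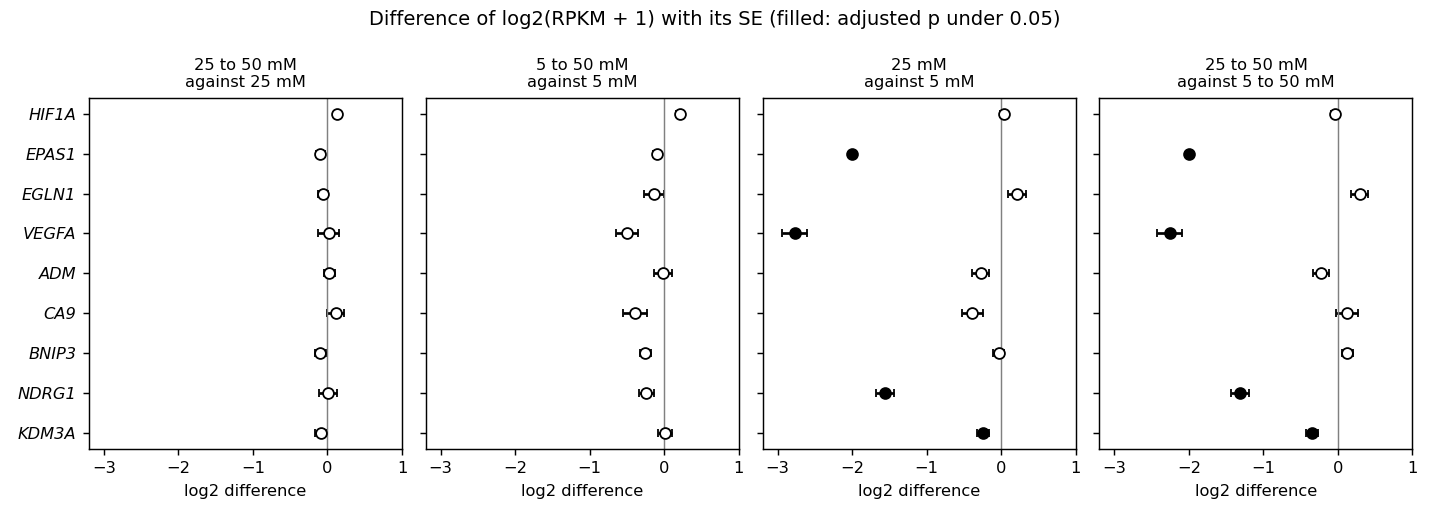
Log2 difference (horizontal axis, log2(RPKM + 1) scale) with its standard error for the 9 genes tested in the 4 comparisons, with filled points where the limma adjusted p was under 0.05. EPAS1, VEGFA, NDRG1 and KDM3A are filled in both comparisons between cultures, and no point is filled for the glucose rises.

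CD68, a lysosomal protein used as a macrophage marker, moved in the same comparison. Summed RPKM over 5 blood and macrophage markers, nearly all of it CD68, was 86.4 to 87.4 in 25 to 50 mM, 93.0 in both 25 mM, 216 to 227 in 5 to 50 mM and 244 to 253 in 5 mM libraries, while the leukocyte marker PTPRC stayed at or below 0.214 RPKM. Among 6 endothelial markers the sum was 4.46 to 4.59 in 25 to 50 mM, 3.89 to 4.11 in 25 mM, 5.01 to 5.85 in 5 to 50 mM and 4.21 to 5.18 in 5 mM libraries, with CDH5 at 0 in all 8. PECAM1 was at or below 0.0367 RPKM in the 25 mM culture and at 0.659 to 0.927 RPKM in the 5 mM culture. TEK, which made up most of the endothelial sum, leaned the other way. Group means of TEK were 4.305 RPKM in 25 to 50 mM and 3.774 RPKM in 25 mM libraries. They were 3.759 RPKM in 5 to 50 mM and 2.935 RPKM in 5 mM libraries. TEK did not pass in 25 mM against 5 mM (log2 0.29, limma adjusted p = 0.104). The part of these markers in the difference of EPAS1 and VEGFA was not tested.

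The question set by the design is what a rise to 50 mM glucose did within each culture. None of the 9 genes passed in 25 to 50 mM against 25 mM, where 0.00876% of 11422 genes did, nor in 5 to 50 mM against 5 mM, where 0.329% of 11849 genes did. At an unadjusted p under 0.05 limma gave 1 gene in the first, HIF1A, and 3 in the second, HIF1A, VEGFA and BNIP3, against 9.25% and 10.5% of all genes. No member passed under any other setting in the first. In the second, calls of members and of genes at large both changed when 5 mM replicate 1 was left out, which leaves 1 library on that side. The log2 differences were then 0.24 for HIF1A, -0.67 for VEGFA, -0.36 for NDRG1 and -0.32 for BNIP3. With 2 libraries a side an exact permutation test of 1 gene cannot give a two-sided p below 0.333.

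VEGFA was the furthest down of the set in 5 to 50 mM against 5 mM, with a log2 difference of -0.50 (SE 0.148, limma adjusted p = 0.342). That was 42nd from the lowest of 11849 genes. CA9 differed by -0.39 (adjusted p = 0.493), BNIP3 by -0.25 (0.320), NDRG1 by -0.24 (0.493), EGLN1 by -0.14 (0.802), EPAS1 by -0.10 (0.624), ADM by -0.02 (0.973) and KDM3A by 0.01 (0.985). Groups did not overlap for 5 of the 9 in the lower direction and 1 in the higher, where 26.0% and 16.6% of all genes did not. In 25 to 50 mM against 25 mM the log2 differences ran from -0.10 for EPAS1 to 0.13 for HIF1A, that of VEGFA was 0.01 (95% interval -0.33 to 0.36), and 4 of the 9 did not overlap, against 43.5% of all genes. The median over the 9 was -0.14 in the 5 mM culture and 0.01 in the 25 mM culture, against -0.03 and -0.04 over all genes.

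The difference between the 2 rises was tested directly. None of the 9 passed, where 0.0251% of 11941 genes did (3 genes). It was 0.51 for VEGFA (SE 0.234, limma adjusted p = 0.860), 0.51 for CA9 (SE 0.202, adjusted p = 0.804) and 0.25 for NDRG1 (adjusted p = 0.967). For EPAS1 it was 0.00 (95% interval -0.16 to 0.16). VEGFA, CA9 and NDRG1 differed by -0.50, -0.39 and -0.24 in 5 to 50 mM against 5 mM. In 25 to 50 mM against 25 mM they differed by 0.01, 0.11 and 0.007.

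**Figure D3:**
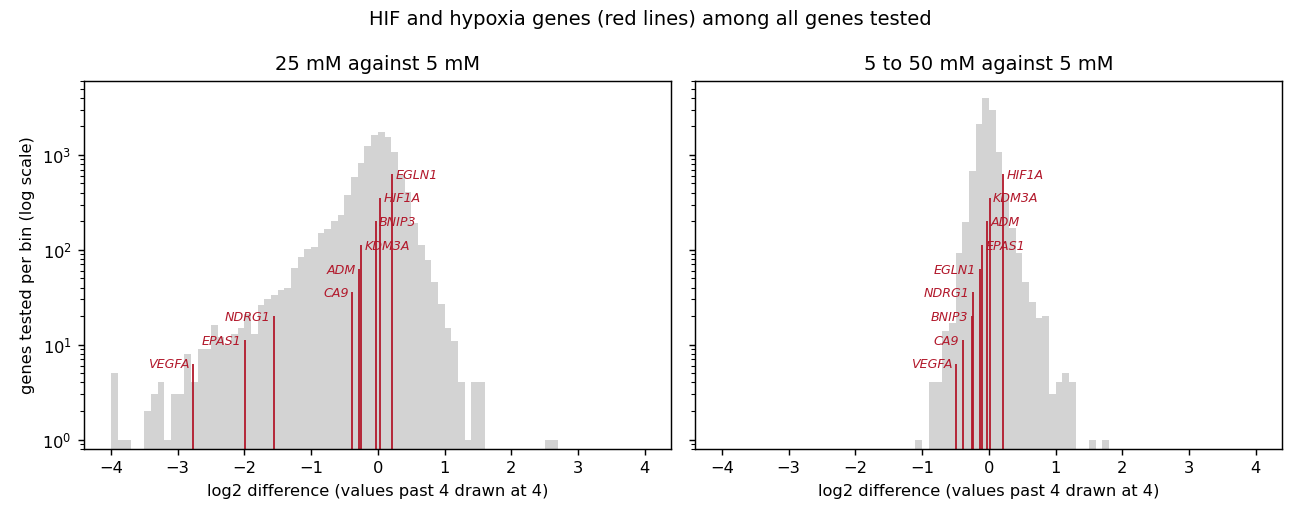
Histograms of the log2 difference of all genes tested (grey, log count axis) in 25 mM against 5 mM and in 5 to 50 mM against 5 mM, with red lines at the 9 genes. VEGFA, EPAS1 and NDRG1 lie in the lower tail on the left, and VEGFA lies 42nd from the lowest on the right.

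Replicates of 1 group also differed from each other along these genes. In 5 mM replicate 3, 7 of the 9 were above replicate 1, by a median log2 of 0.24, where 51.0% of all genes were higher, by a median of 0.01. In 25 mM replicate 3, 7 of the 9 were likewise above replicate 1, by a median log2 of 0.09, where 62.6% of all genes were higher, by a median of 0.03. The list of 23 glycolytic targets differed by a median of 0.01 between the 5 mM replicates. In 5 to 50 mM replicate 2, 0 of the 9 were above replicate 1 (median -0.07; 46.7% of all genes were higher).

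Among the other HIF subunits, ARNT, the shared beta subunit, had 27.5 and 28.3 RPKM in 25 mM and 30.3 and 27.5 RPKM in 5 mM libraries (log2 -0.05, limma adjusted p = 0.588). ARNT2, a second beta subunit chosen for mention after its values were seen, was higher in 25 mM than in 5 mM libraries (log2 0.46, adjusted p = 8.85e-04). HIF3A did not pass the filter on low values. Of 9 other genes of hydroxylation and degradation, 1 was higher (SIAH1, log2 0.24) and 1 lower (ELOC, log2 -0.26) in 25 mM than in 5 mM libraries, where 39.1% of all genes were called. Without 25 mM replicate 1 or 3 or 5 mM replicate 1, 0 were higher, and without 5 mM replicate 3, 2 were. The hydroxylase EGLN2 (log2 0.01, adjusted p = 0.959), the asparaginyl hydroxylase HIF1AN (log2 -0.11, 0.173) and VHL (log2 0.32, 0.154) did not pass, although VHL did without 5 mM replicate 3 (log2 0.56, adjusted p = 0.0115).

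Of 6 co-activator and feedback genes tested, 2 were higher (CITED2 and CREBBP) and 2 lower in 25 mM than in 5 mM libraries, where 39.1% of all genes were called and 22.1% called lower. Leaving out any 1 of the 4 compared libraries left 0 or 1 higher and 2 lower. BHLHE40, a repressor induced by hypoxia, had 7.08 and 9.06 RPKM in 25 mM and 20.2 and 23.3 RPKM in 5 mM libraries (log2 -1.33, limma adjusted p = 1.67e-04). Its paralogue BHLHE41 was lower too (log2 -1.55, adjusted p = 2.99e-04), both picked after their values were seen. CITED2, which competes with HIF for p300, was higher (log2 0.37, adjusted p = 0.0436), a call that was lost in several settings, among them each compared library left out except 5 mM replicate 3.

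Of 23 glycolytic hypoxia targets, 16 were lower and 0 higher in 25 mM than in 5 mM libraries, where 22.1% of all genes were lower, with a median log2 of -0.36 against -0.004 over all genes. With 1 library left out, the count called lower stayed or fell, and the count called higher stayed or rose. SLC2A1, the GLUT1 glucose transporter, had 60.8 and 57.9 RPKM in 25 mM and 85.7 and 89.9 RPKM in 5 mM libraries (log2 -0.56, limma adjusted p = 1.28e-04). HK2, the inducible hexokinase, was lower by a log2 of -0.88 (adjusted p = 5.00e-05; picked after its values were seen), while PDK1, a kinase that restrains pyruvate dehydrogenase, did not pass (log2 -0.07, adjusted p = 0.593). In 25 to 50 mM against 5 to 50 mM, 13 were lower and 0 higher (median -0.25), where 23.3% of all genes were lower.

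Of 33 other hypoxia targets tested, 19 were lower and 2 higher in 25 mM than in 5 mM libraries (median log2 -0.25, against -0.004 over all genes, of which 22.1% were lower). The counts were 18 and 2 in 25 to 50 mM against 5 to 50 mM (median -0.34, against -0.02 over all genes, of which 23.3% were lower). With 1 library left out, the count called lower moved up or down in the first comparison and fell in the second. LOX, the collagen cross-linking oxidase, had 32.9 and 32.2 RPKM in 25 mM and 66.3 and 72.1 RPKM in 5 mM libraries (log2 -1.06, limma adjusted p = 3.03e-05). DDIT4, an mTORC1 inhibitor, had 11.3 and 11.2 RPKM in 25 mM and 33.3 and 44.8 RPKM in 5 mM libraries (log2 -1.70, adjusted p = 1.95e-04). The mitophagy receptor BNIP3L fell by less (log2 -0.23, adjusted p = 0.00356). ANKRD37 (log2 -0.14, 0.612) and the prolyl 4-hydroxylase P4HA1 (log2 -0.12, 0.119) did not pass.

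Members picked after their values were seen show the spread of that list. STC1, stanniocalcin, had 5.64 and 6.04 RPKM in 25 mM and 45.2 and 42.7 RPKM in 5 mM libraries (log2 -2.72, limma adjusted p = 6.04e-07), a difference close in size to that of VEGFA. The VEGFA relative PGF was lower (log2 -1.43, adjusted p = 2.11e-05). ANGPTL4 (log2 0.72, adjusted p = 0.0117) and LOXL2 (log2 0.51, adjusted p = 1.51e-04) were higher in 25 mM libraries, against the direction of most of the list. The call for ANGPTL4 was lost without 25 mM replicate 3 (adjusted p = 0.0804).

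Of the 8 receptors of VEGFA and adrenomedullin, 4 were tested, and 2 (NRP1 and RAMP1) were lower and 0 higher in 25 mM than in 5 mM libraries, where 22.1% of all genes were lower. Without 25 mM replicate 1 or 3 or 5 mM replicate 3, 1 was lower, and without 5 mM replicate 3, 1 was higher. NRP1, the VEGFA co-receptor, had 102 and 106 RPKM in 25 mM and 154 and 143 RPKM in 5 mM libraries (log2 -0.51, limma adjusted p = 2.07e-04). KDR, the main signalling receptor of VEGFA, stayed under the filter at 0.127 to 0.147 RPKM in 25 mM and 0.912 to 0.942 RPKM in 5 mM libraries.

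Within the rises, the 23 glycolytic targets gave 0 calls in limma. At an unadjusted p under 0.05 it gave 4 of them in 25 to 50 mM against 25 mM (2 higher, 2 lower; median log2 -0.02) and 4, all lower, in 5 to 50 mM against 5 mM (median log2 -0.07), against 9.25% and 10.5% of all genes. Of the other hypoxia targets, 6 were higher and 3 lower of 31 in the first, and 4 higher and 5 lower of 32 in the second, at that threshold. Leaving out 1 library moved the adjusted calls of both lists in both rises, and it moved those over all genes as well.

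**Figure D4:**
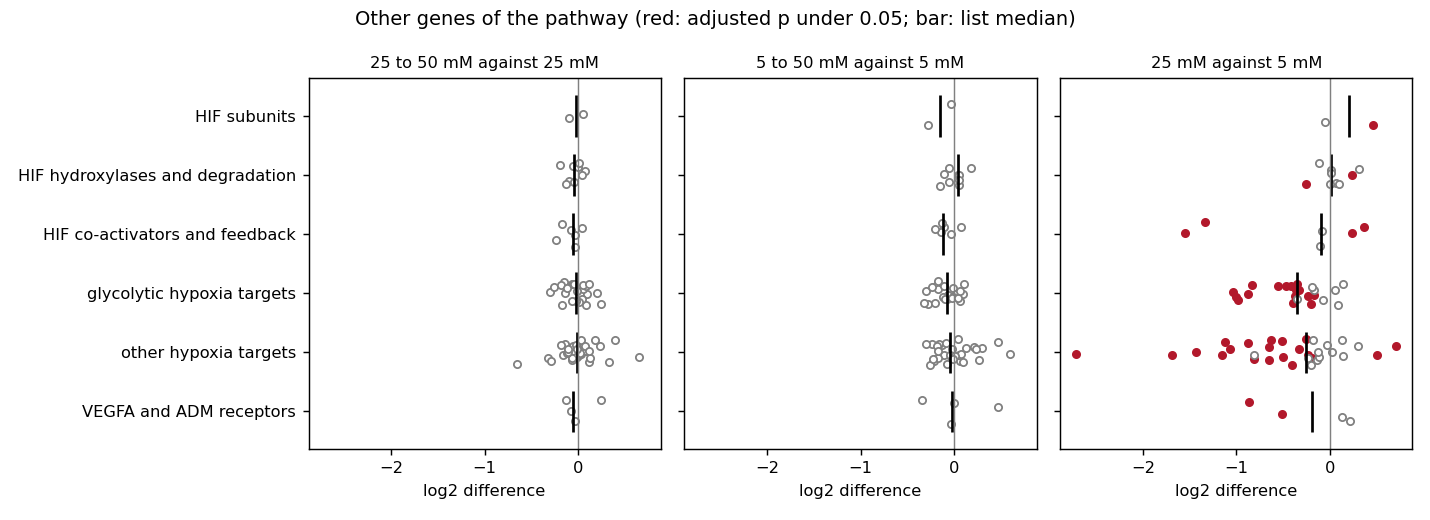
Log2 difference (horizontal axis) of the tested genes reported from 6 HIF-pathway lists, the 10 genes left out, in 3 comparisons, with red points where the limma adjusted p was under 0.05 and a bar at the list median. Most red points lie below 0 in the glycolytic and other target lists in 25 mM against 5 mM.

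Likeness of pattern was taken as Pearson's r of log2(RPKM + 1) over the 8 libraries, among the 9610 genes averaging 5 RPKM or more. Because the libraries fall into 2 cultures, a high r mostly records that split. NEU1 (r = 0.9997), SERINC2 (r = 0.9994) and CD63 (r = 0.9992) were most like EPAS1, and 893 genes exceeded 0.95. MMP14, CADM1 and TOX2 were most like VEGFA (r = 0.996, 0.996 and 0.995), with 762 genes over 0.95. For HIF1A, whose libraries overlapped between 25 mM and 5 mM, 6 genes exceeded 0.95, led by NUDCD1 (r = 0.990) and PRDX1 (r = 0.986).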

How the data were processed

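RNA-seq of 8 AC16 libraries was analysed from 2 tables of RPKM values that the authors deposited, 1 per maintenance glucose, with a row per gene. Per the submitters' processing notes, reads were handled with STAR on the hg38 build. The counting tool, strand setting and gene lengths are not given in the sources used here. RPKM scales each library by its own total, and 1 set of lengths turned the values of both tables into whole reads (100% of 16297 genes above 0, within 0.01 reads), so levels were set across tables. Of the lengths found, 84.4% were multiples of 3, as coding lengths are. Genes that reached 1 RPKM in 2 or more fitted libraries were tested on log2(RPKM + 1) with limma 3.58.1 in R 4.3.3 (moderated two-sided test with a mean-variance trend). P-values were adjusted over every gene tested by the Benjamini-Hochberg method, with a threshold of 0.05. Each rise was fitted on its own 4 libraries, and the other comparisons on all 8. The read recovery and the test were checked on simulated data. RefSeq matched 19432 gene numbers. The 10 genes and all lists were chosen with earlier results of these data known. Genes named from the lists are HIF regulators, textbook targets and receptors, and others said to be chosen after their values were seen. SIAH1, ELOC, CREBBP and RAMP1 were named after their calls in 25 mM against 5 mM were seen. Alternatives were other pseudocounts (0.1 and 0.5), filters, scalings, variance models, sample sets, a replicate block and each library left out. Of the lists, 1 hypoxia target is not reported here and is left out of the list counts.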

Additional observations from a re-analysis of the deposited data

How the results depend on the processing

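EPAS1, VEGFA and NDRG1 kept direction and call between the cultures in every setting, and no member was called in 25 to 50 mM against 25 mM or in the difference between the rises. Counts over all genes were less stable. The count in 25 to 50 mM against 25 mM (1) became 0 with no filter, 0 without trend, 0 with the replicate block, 2 by quantile normalization, 4 by median centring, 4 in the fit of all 8 libraries and 7 by voom on recovered reads. The count in 5 to 50 mM against 5 mM (39) became 0 with no filter, 0 without trend, 0 with the block, 60 by centring, 61 by quantile normalization and 130 in the fit of all 8 libraries. The count for the difference between the rises (3) became 0 at pseudocounts of 0.1 and 0.5, at a mean of at least 5 RPKM, by voom and with the block, and 1 with no filter and 1 without trend. Leaving out 1 library gave 0 to 777 genes in 25 to 50 mM against 25 mM, 0 to 805 in 5 to 50 mM against 5 mM (0 to 4 members), 3024 to 4769 in 25 mM against 5 mM, 3177 to 3870 in 25 to 50 mM against 5 to 50 mM and 0 to 6 for the difference. The cause was not tested. Signs near 0 turned. With the block, ADM was -0.0404, NDRG1 -0.0824 and VEGFA -0.00502 in 25 to 50 mM against 25 mM. HIF1A in 25 to 50 mM against 5 to 50 mM was 0.0169 by centring and 0.0179 by quantile normalization, and PDK1 in 25 mM against 5 mM was 0.0423 by quantile normalization. The difference for EPAS1 was -0.00219 at a pseudocount of 0.1, -0.00117 at 0.5, -0.00180 by voom and -0.00538 with the block. Leaving out 1 library gave ADM -0.0739 to 0.127, NDRG1 -0.16 to 0.17 and VEGFA -0.16 to 0.19 in 25 to 50 mM against 25 mM. It gave KDM3A -0.0554 to 0.0745, ADM -0.20 to 0.16 and EGLN1 -0.311 to 0.0355 in 5 to 50 mM against 5 mM. It gave BNIP3 -0.116 to 0.0507, ARNT -0.116 to 0.0183, EGLN2 -0.28 to 0.31 and PDK1 -0.164 to 0.0294 in 25 mM against 5 mM, and ADM -0.13 to 0.23, EPAS1 -0.0327 to 0.0328 and EGLN1 -0.10 to 0.25 for the difference. Replicate numbers 1 and 3 are shared by 25 mM and 5 mM libraries, and same-numbered deviations correlated at r = 0.302 over 9611 genes, but the labels do not say that a number pairs cultures. The block called 3420 genes in 25 to 50 mM against 5 to 50 mM and 3456 in 25 mM against 5 mM. A library left out leaves 1 library on that side, assumed to vary like the others.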
